A study of Mus musculus with 60 samples.

Results

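The 26 genes described here encode enzymes and regulators of cholesterol and fatty acid synthesis, and they were chosen as the rows of both count tables whose Ensembl identifiers map to a named list of mouse SREBP pathway genes. All 26 were found once in each table of 56980 gene rows, and all 26 passed the filter on low counts in the 3 fits whose values are given. The list holds 6 enzymes of the mevalonate steps, 3 that carry the path to lanosterol, 8 that turn lanosterol into cholesterol, 3 regulators, 5 genes of fatty acid synthesis and desaturation, and 1 sterol transport gene. RNA sequencing had been run on 60 libraries of cultured mouse fibroblasts, 3 in each of 20 groups, and the counts were deposited in 2 tables.

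The reprogramming table holds 36 libraries of tail tip fibroblasts. The cells labelled D/KO carry 1 truncated (Δ) and 1 null allele of Ercc1, a nuclease subunit used in DNA repair, with 1 copy each of the 4Fj cassette (Oct4, Sox2, Klf4 and c-Myc under doxycycline control) and of the rtTA transactivator, and came from a male of 8 weeks. The cells used as WT carry 1 copy of the 4Fj cassette and an Oct4-GFP reporter, and came from a female of 22 weeks. Genotype therefore cannot be told apart from sex, age and line in any D/KO to WT comparison of this table. Libraries were made at days 0, 2 and 4 of 2 µg/ml doxycycline, without or with VC, a mixture of 50 µg/ml ascorbic acid and 3 µM CHIR99021 (an inhibitor of glycogen synthase kinase). A group with VC is written VC day 0, 2 or 4 and was compared with VC day 0 of the same cells. The inhibitor table holds 24 libraries without doxycycline. Its D/KO tail tip fibroblasts came from a female of 4 weeks and were left untreated or grown with Repsox, Vactosertib, DMH-1 or A83-01. The labels give no dose or time for these libraries. The study's text gives 0.1 µM for Repsox and Vactosertib and 1 µM for DMH-1 and A83-01 in its methylation assay. It also states that RNA and DNA came from the same samples and that treatment with the inhibitors lasted 3 days. These doses and this time are taken here to hold for the libraries. Repsox, Vactosertib and A83-01 inhibit the TGFb type I receptor kinase and DMH-1 inhibits a BMP type I receptor kinase. The study groups Vactosertib with the former and also describes it as inhibiting both receptors. The same table holds untreated WT tail tip and WT skin fibroblasts from a female of 14 weeks, and 3 libraries of the WT 4F line labelled TGFB, for which no untreated partner is in the table. Nothing in the labels says that the 3 libraries of a group came from separate animals, so the p-values measure the spread between these libraries, which may be technical.

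In animal cells cholesterol is built from acetyl units through mevalonate, squalene and lanosterol, while fatty acids are built from the same acetyl units. When sterol in the endoplasmic reticulum is low, the SREBP proteins encoded by Srebf1 and Srebf2 are carried by Scap to the Golgi, cut there and released to the nucleus, where they raise transcription of these enzymes together. Insig1 holds the complex back when sterol is plentiful and is itself a target, so the transcripts of the pathway tend to move as a block in fibroblasts as in other tissues.

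SREBP proteins bind weakly alone and act with NF-Y and Sp1 at neighbouring sites, so promoter windows from RefSeq (mouse build GRCm38.p6, 250 bases before to 50 bases after each start) were searched on both strands. Of the 26 genes, 20 had a window, and Fdps, Fdft1, Sqle, Scd1, Scd2 and Stard4 are named only. The NF-Y box CCAAT was found in 19 of those 20 genes (95%), against 41.058% of all 27025 genes in the collection, and the Sp1 box GGGCGG in 17 of 20 (85%), against 38.202%. The sterol element TCACNCCAC was found in 1 of 20, Hmgcs1, against 1.436% of all genes, and the looser form TCACNCNAC, which includes every match to the former, in 2 of 20, Hmgcs1 and Nsdhl, against 3.145%. Of the genes near the pathway that are described further below, 23 had a window. Among these 23, CCAAT was found in 13, GGGCGG in 15 and either sterol form in 0. The 250 bases before the start are printed for 5 genes on which the results below turn, 5′ to 3′ on the gene's strand, with CCAAT or its reverse complement ATTGG and TCACNCCAC in capitals. They lie at chr13:119690101-119690350 (plus strand), chr13:8885356-8885605 (plus), chr19:6067851-6068100 (minus), chr15:82147019-82147268 (plus) and chr5:28071162-28071411 (plus).

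Hmgcs1: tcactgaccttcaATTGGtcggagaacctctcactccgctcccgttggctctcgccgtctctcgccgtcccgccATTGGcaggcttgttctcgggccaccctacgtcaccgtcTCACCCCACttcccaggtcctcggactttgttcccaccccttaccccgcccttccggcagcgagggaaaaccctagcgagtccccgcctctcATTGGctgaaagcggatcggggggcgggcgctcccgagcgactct
Idi1: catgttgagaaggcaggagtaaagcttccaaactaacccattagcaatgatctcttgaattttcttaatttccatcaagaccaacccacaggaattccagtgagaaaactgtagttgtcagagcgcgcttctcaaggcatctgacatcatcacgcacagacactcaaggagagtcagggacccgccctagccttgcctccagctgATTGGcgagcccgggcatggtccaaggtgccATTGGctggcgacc
Tm7sf2: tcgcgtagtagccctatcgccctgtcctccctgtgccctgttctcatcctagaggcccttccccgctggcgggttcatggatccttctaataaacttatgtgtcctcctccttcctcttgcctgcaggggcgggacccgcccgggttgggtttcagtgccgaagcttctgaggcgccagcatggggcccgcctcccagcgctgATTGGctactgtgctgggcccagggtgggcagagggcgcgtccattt
Srebf2: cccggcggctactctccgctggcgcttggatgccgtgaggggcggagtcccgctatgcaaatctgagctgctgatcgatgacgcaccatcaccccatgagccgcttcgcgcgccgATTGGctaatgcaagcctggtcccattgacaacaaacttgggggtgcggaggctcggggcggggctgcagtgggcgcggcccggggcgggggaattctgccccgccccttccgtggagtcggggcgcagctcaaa
Insig1: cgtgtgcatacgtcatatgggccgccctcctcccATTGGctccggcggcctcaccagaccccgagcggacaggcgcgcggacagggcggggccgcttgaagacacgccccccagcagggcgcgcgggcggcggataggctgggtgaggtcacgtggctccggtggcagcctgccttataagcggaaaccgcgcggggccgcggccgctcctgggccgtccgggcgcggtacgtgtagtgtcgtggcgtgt

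The printed bases of Hmgcs1 hold 3 NF-Y boxes and the sterol element, whose first base lies 137 bases before the start, and those of Idi1 hold 2 NF-Y boxes within 45 bases of the start. Tm7sf2, Srebf2 and Insig1 hold 1 NF-Y box each in the printed bases. A match is a description of letters and was not tested as a binding site.

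Summed counts of a library lay between 16538374 and 18484951 in the reprogramming experiment and between 17102639 and 30599138 in the inhibitor experiment. Levels are given as CPM (counts scaled by library total and TMM factor), and differences as log2 fold changes from the quasi-likelihood test of edgeR, with p-values adjusted by Benjamini and Hochberg over all genes tested, with adjusted p under 0.05 counted as a call. Ercc1 was 8.04 to 18.6 CPM in the D/KO and 16.9 to 29.1 CPM in the WT libraries of the reprogramming table, ranges that overlap at their ends. In the inhibitor table it was 20.3 to 20.9 CPM in control D/KO and 13.3 to 21.7 CPM in control WT, and does not separate the labels. Fibroblast markers (8 of 8 detected) summed to between 27100 and 252000 CPM, and the adipocyte, sebaceous gland, keratinocyte and myeloid lists had between 0 and 6 genes with no count. In the inhibitor table, replicate 2 of Repsox and replicate 1 of WT skin stood apart from their partners by transcript length. In them, genes with the shortest transcripts lay above genes with the longest, relative to the partners, by 1.08 and 1.20 on the log2 scale, against a median of 0.313 (in either direction) over the 24 libraries, so the counts of called members that rest on these libraries are also given without them. In the reprogramming table the largest were 0.527 (WT day 2 replicate 2), 0.476 (D/KO day 4 replicate 2) and -0.469 (D/KO VC day 4 replicate 1). The median there was 0.135 over the 36 libraries.

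Per kilobase of transcript, Scd2, a stearoyl-CoA desaturase, was the highest of the 26 genes in untreated cells, at 131 ± 13.2 CPM per kilobase (mean ± SD, n = 3) in D/KO cells and 91.7 ± 2.16 in WT ones, both at day 0. In D/KO cells at day 0 the next in order were Acly, which makes cytosolic acetyl-CoA (32.3 ± 2.61), and Srebf2 (31.0 ± 2.47), which did not differ beyond their spread. Fdps, the farnesyl diphosphate synthase, was lowest at 0.305 ± 0.0795. Over 81.3% of the length of its transcript, another annotated gene is at least 97% identical, and so are others over 70% of Fdft1 and 67.7% of Acaca, so the level of these 3 genes depends on how reads with several matches were counted, which is not given in the sources used here. Such stretches also made up 33.3% of Idi1, 28.6% of Cyp51, 20.9% of Hmgcs1 and less of some other members. Without known strandedness, reads of Cyp51 and Akap9, Fdft1 and Ctsb, and Sqle and Washc5, whose exons overlap on opposite strands, cannot be told apart, and Tm7sf2 shares 532 exon bases on the same strand with Vps51.

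Reprogramming was compared with day 0 of the same cells, to ask what the pathway did in the first days of factor expression. Genes of every step rose in D/KO and in WT cells. In D/KO cells 18 of 26 genes were called higher and 0 lower at day 2 (27.4% of all 15832 genes tested were called, 14.3% higher and 13.2% lower), and 19 were higher and 1 lower at day 4 (37.0%, with 18.3% and 18.7%). With VC, 23 were higher and 1 lower at day 2 (47.4%, with 23.8% and 23.6%), and again at day 4 (54.1%, with 27.9% and 26.2%). In WT cells 18 were higher and 0 lower at day 2 (6.26% and 4.30%), 22 and 0 at day 4 (11.7% and 12.8%), and 20 and 0 at VC day 2 (13.8% and 13.7%). At WT VC day 4 the numbers were 11 higher and 2 lower, Mvk and Scd2 (22.7% and 22.0%). The number lower there was 0 without replicate 3 of WT VC day 0 or replicate 1 of WT VC day 4, and 1 without replicate 1 of WT VC day 0 or replicate 2 or 3 of WT VC day 4, and against day 0 without VC the log2 fold changes of Mvk and Scd2 were 0.13 and 0.23. The median log2 fold change of the 26 genes was 0.53 to 0.72 in the first 7 of these comparisons and 0.22 at WT VC day 4. Comparisons of days 2 and 4 share their day 0 libraries, so they are not independent of each other. Hmgcs1, Mvd, Idi1, Sqle, Srebf2, Insig1 and Scd1, 7 genes from every role but sterol transport and the steps after lanosterol, were called higher in all 8. For Hmgcs1 the WT call at VC day 4 rests on the VC day 0 group, since against day 0 without VC its log2 fold change was -0.031. Likewise the D/KO calls of Insig1 at VC day 2 and VC day 4 rest on that group, since against day 0 without VC its log2 fold changes were 0.30 and 0.035, not called.

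**Figure D1:**
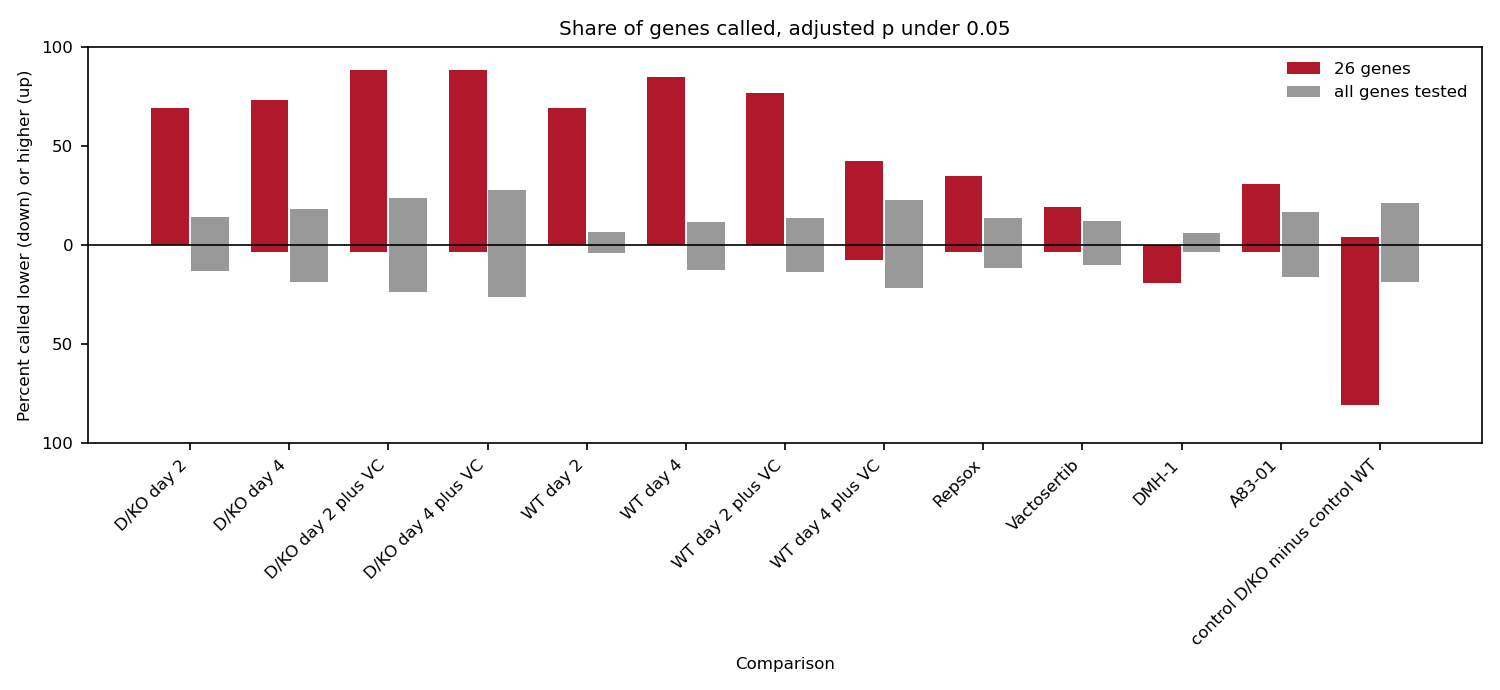
Percent of the 26 genes (red) and of all genes tested (grey) called higher (bars above 0) or lower (bars below 0) in each comparison, at an edgeR adjusted p under 0.05. The red bars reach past the grey ones upward in the 8 reprogramming comparisons, and downward in control D/KO against control WT, where 21 of 26 genes were lower.

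Among the mevalonate genes of D/KO cells without VC the rise was steepest for Idi1, which isomerises isopentenyl diphosphate, and for Mvd, which makes that compound. Idi1 was 16.4, 16.1 and 17.9 CPM in the 3 D/KO libraries at day 0, 38.4, 31.3 and 34.5 at day 2, and 42.3, 38.9 and 45.8 at day 4. In WT cells it was 17.3, 14.7 and 17.2 CPM at day 0, 32.8, 27.8 and 27.8 at day 2, and 39.4, 38.2 and 34.3 at day 4. Every library at day 2 or 4 lay above every day 0 library of its line, and the D/KO and WT ranges overlapped on each day. The log2 fold change of Idi1 was 1.05 ± 0.12 (SE) at D/KO day 2 (edgeR adjusted p = 8.03e-09), 1.33 ± 0.12 at D/KO day 4 (edgeR adjusted p = 1.3e-11) and 1.19 ± 0.12 at WT day 4 (edgeR adjusted p = 7.63e-10). Mvd was 19.0 to 21.6 CPM at D/KO day 0, 45.2 to 50.7 at day 2 and 40.7 to 45.1 at day 4, with a fold change of 2.39 at day 2 and 2.11 at day 4. Hmgcs1, which condenses the first committed units, rose in all 8 comparisons with log2 fold changes between 0.42 and 0.90. Mvk, the mevalonate kinase, was called higher in 3 of 8 and lower in 1 (WT VC day 4, -0.31), where against day 0 without VC it was 0.13 and not called. Pmvk, which adds the second phosphate, was higher in 6 of 8. Fdps was called in 3 of 8, at levels of 0.561 to 4.15 CPM over the 36 libraries.

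Of the 3 genes that lead to lanosterol, Fdft1 (squalene synthase) was higher in 7 of 8 comparisons, Sqle (squalene epoxidase, a rate-limiting step) in 8 of 8 and Lss (lanosterol synthase) in 5 of 8. Sqle was 68.2, 67.0 and 72.5 CPM at D/KO day 0, 103, 101 and 108 at day 2, and 126, 125 and 134 at day 4. With VC it was 66.1, 69.7 and 62.3 CPM at day 0 and 124, 129 and 128 at day 2. Without VC the days did not overlap, nor did they with VC, and replicates of Sqle lay closer together than the days compared. Its log2 fold change was 0.59 ± 0.09 at D/KO day 2 and 0.89 ± 0.09 at D/KO day 4 (edgeR adjusted p = 1.46e-06 and 1.22e-10).

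The 8 genes that convert lanosterol to cholesterol moved unequally. Tm7sf2, a sterol reductase, had the largest log2 fold changes of this step in D/KO cells, 1.30 ± 0.20 at D/KO day 2 and 1.58 ± 0.21 at D/KO VC day 2 (edgeR adjusted p = 3.54e-06 and 1.22e-07). It was 7.16, 6.39 and 7.43 CPM at D/KO day 0 and 15.7, 17.5 and 18.4 at day 2, without overlap. At D/KO day 4 its libraries read 13.2, 20.4 and 13.4 CPM, so 1 library, replicate 2, lay well above the other two. Ebp, a sterol isomerase, rose from 25.9 to 33.1 CPM at D/KO day 0 to 53.9 to 62.4 at day 2 (log2 fold change 0.92 ± 0.17, edgeR adjusted p = 8.5e-05). Against day 0 without VC, the log2 fold change of Tm7sf2 was 0.917 at D/KO VC day 2 and 0.721 at VC day 4. That of Ebp was 1.299 and 1.175, so with VC the lead of Tm7sf2 rests on the VC day 0 group. Dhcr7 and Nsdhl, which reduce and demethylate the sterol ring, were higher in 7 of 8 comparisons each, as were Cyp51, which removes a methyl group from lanosterol, and Hsd17b7. Msmo1, a sterol oxidase, was higher in 6 of 8.

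Sc5d, the sterol desaturase that acts just before Dhcr7, was the member of this step that was called higher in 0 of 8 comparisons. It was 71, 68.6 and 67.9 CPM in D/KO cells at VC day 0, 47.7, 50.9 and 55.8 at VC day 2, and 53.9, 36.9 and 47.3 at VC day 4. All later libraries lay below the day 0 ones, and its log2 level fell by 0.43 at VC day 2 and by 0.59 at VC day 4 (edgeR adjusted p = 0.0125 and 0.000634). Without VC it was 43.8, 50.6 and 49.1 CPM at D/KO day 0. Against that day 0, Sc5d had a log2 fold change of 0.11 at VC day 2 (edgeR adjusted p = 0.57) and of -0.055 at VC day 4, so neither call holds against day 0 without VC. The call at VC day 2 was also lost without replicate 1 of D/KO VC day 2 (edgeR adjusted p = 0.0662).

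The regulators differed between the paralogues. Srebf2, whose protein mainly drives cholesterol synthesis, was 208, 218 and 242 CPM at D/KO day 0, 318, 331 and 335 at day 2, and 419, 423 and 376 at day 4. It was 189, 181 and 186 CPM at WT day 0, 247, 234 and 233 at day 2, and 338, 304 and 321 at day 4. Groups of successive days did not overlap in either line. Its log2 fold change was 0.87 ± 0.09 at D/KO day 4 and 0.79 ± 0.09 at WT day 4 (edgeR adjusted p = 3.41e-10 and 8.9e-09). Srebf1, whose protein mainly drives fatty acid synthesis, was 156 to 168 CPM at D/KO day 0 and 159 to 189 at day 4, and its log2 fold changes over the 8 comparisons ran from -0.07 to 0.32, with 4 called higher. Of these, the 2 calls of Srebf1 in D/KO cells with VC turned to -0.13 at VC day 2 and -0.14 at VC day 4 against day 0 without VC. Insig1, the sterol-sensing anchor, rose in all 8, by 0.59 to 0.92 on the log2 scale, where the lowest value, at D/KO VC day 4, was 0.035 against day 0 without VC. At D/KO day 0 replicate 3 of Insig1 was 69.2 CPM against 46.3 and 43.2 in its partners, and still below the lowest day 2 library, 84.7.

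**Figure D2:**
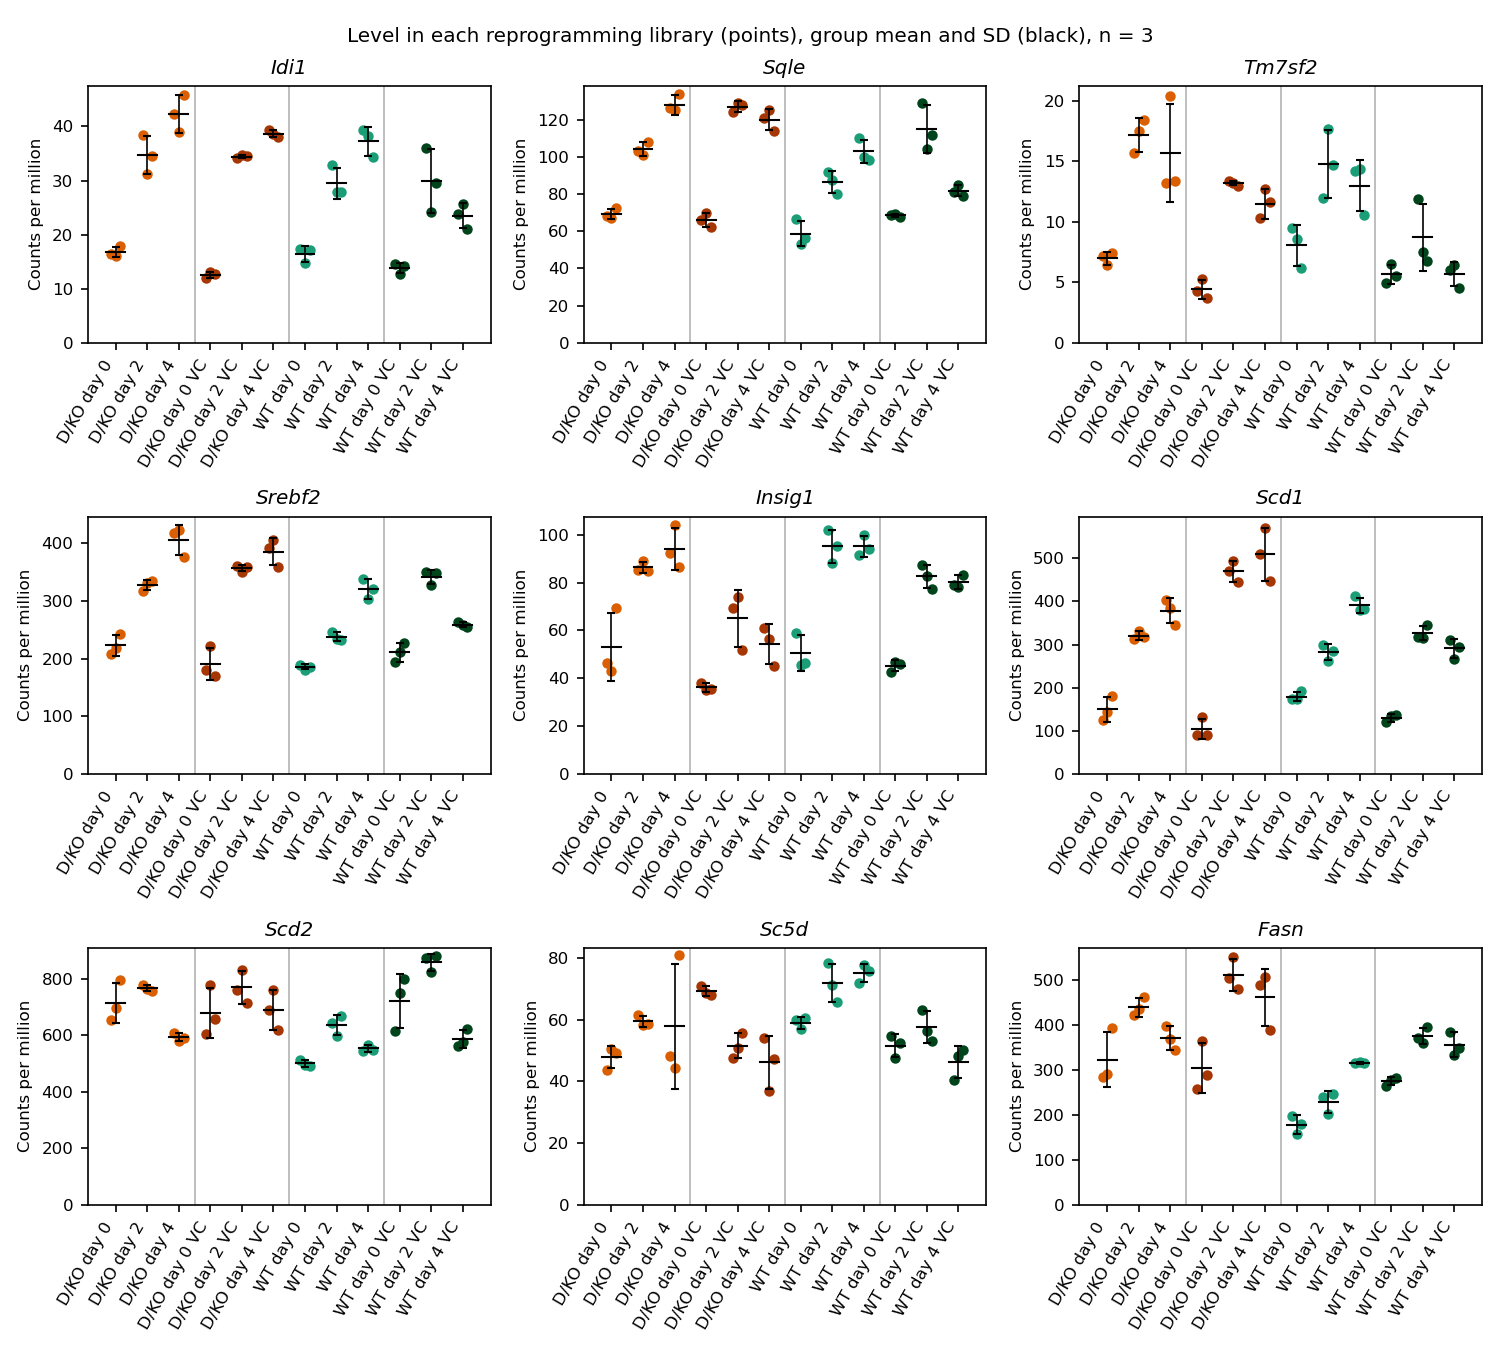
CPM (y axis, from 0) of 9 genes in each of the 36 reprogramming libraries (points), by group (x axis), with the group mean and SD in black (n = 3). Idi1, Sqle, Tm7sf2, Srebf2, Insig1 and Scd1 rise from day 0 to day 2 in D/KO cells, while Sc5d lies lower at days 2 and 4 plus VC than at VC day 0 in D/KO cells.

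Fatty acid genes split by gene. Scd1, a stearoyl-CoA desaturase, had the largest fold change of the 26 genes in the D/KO groups with VC. It was 125, 143 and 181 CPM at D/KO day 0, 314, 332 and 318 at day 2, and 403, 385 and 346 at day 4. With VC it was 89.3, 131 and 90.2 CPM at day 0, 470, 495 and 446 at day 2, and 511, 571 and 447 at day 4. No later library of Scd1 overlapped its day 0 group, and the fold change reached 4.92 at D/KO VC day 4 (log2 2.30 ± 0.13, edgeR adjusted p = 1.37e-17), against 2.25 at WT VC day 4 (log2 1.17 ± 0.12, edgeR adjusted p = 6.7e-10). Against day 0 without VC these log2 values were 1.77 and 0.70, and both were still called. Scd2, which lies beside Scd1 on chromosome 19 (Scd1 at chr19:44382894-44396318 and Scd2 at chr19:44282113-44295303 of GRCm39, as deposited) and is the most abundant member, did not follow in D/KO cells. It was 654 to 795 CPM at D/KO day 0 and 582 to 609 at day 4, where its log2 value fell by 0.27 (edgeR adjusted p = 0.0308). That call of Scd2 was lost without replicate 3 of D/KO day 0 (edgeR adjusted p = 0.191) and without any 1 of the D/KO day 4 libraries. In WT cells Scd2 was called higher at day 2, by 0.35 on the log2 scale, a call lost in 3 of 11 alternative fits. Acly and Acaca, which make acetyl-CoA and malonyl-CoA, were not called in D/KO cells without VC (log2 fold changes of Acly 0.17 and -0.07, and of Acaca 0.28 and 0.10). With VC they rose, by 0.55 and 0.80 at day 2, but against day 0 without VC the log2 fold change of Acly was 0.14, not called, and that of Acaca was 0.42. Fasn, the fatty acid synthase, was higher in 6 of 8 comparisons. Stard4, which carries sterol between membranes, was higher in 6 of 8, by at most 0.73 on the log2 scale.

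The calls held unevenly when 1 library was left out. Of the 18, 19, 23 and 23 genes called higher in D/KO cells at day 2, day 4, VC day 2 and VC day 4, 15, 16, 21 and 20 were called in every such fit, and of the 18, 22, 20 and 11 in WT cells, 13, 17, 18 and 7. Keratinocyte markers moved with these groups. Summed over 9 genes they were 8.56 to 14.2 CPM at D/KO VC day 0 and 450 to 572 at D/KO VC day 4, and 40.0 to 44.1 CPM at WT VC day 0 and 69.0 to 88.6 at WT VC day 4. Fibroblast markers moved the other way, from 184000 to 252000 CPM summed over 8 genes at D/KO VC day 0 to 27100 to 29300 at D/KO VC day 4, with 7 of 8 lower, and from 154000 to 168000 to 55000 to 64900 CPM at the same times in WT cells, with 5 of 8 lower. Endothelial markers went from 511 to 599 CPM at D/KO day 0 to 302 to 326 at day 4, from 180 to 217 CPM at D/KO VC day 0 to 378 to 510 at D/KO VC day 4, and from 4.67 to 7.08 CPM at WT VC day 0 to 98.1 to 116 at WT VC day 4, and of 4 adipocyte markers tested 3 were lower and 1 higher in each of the 4 D/KO comparisons. Cell division markers moved in places too, with 5, 6 and 8 of 8 higher at D/KO day 2, VC day 2 and VC day 4, 5 of 8 lower at WT day 4 and 7 of 8 lower at WT VC day 2 and again at WT VC day 4. Their part in the result was not tested, and in bulk libraries more cells of a type and more RNA per cell cannot be told apart.

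The next question was whether D/KO and WT cells changed by different amounts. At day 2, 0 of 26 genes were called in either direction by edgeR (6.54% of all genes tested were called, 3.43% higher in the difference and 3.11% lower), with 1 gene at an unadjusted p under 0.05, and 0 by DESeq2. At day 4, 3 genes differed downward (7.27% and 7.04%), Acly by -0.47, Fasn by -0.62 and Scd2 by -0.41 on the log2 scale, D/KO minus WT, and 0 upward by edgeR or DESeq2. In either direction 5 genes had an unadjusted p under 0.05. Without replicate 3 of D/KO day 0, 1 of these 3 calls remained, that of Acly, which was called in every fit that left out 1 library. Over all 17 alternative fits the call was lost in 12 for Scd2, in 1 for Fasn and in 1 for Acly. In this difference 3 of 4 adipocyte and 6 of 8 fibroblast markers were lower too, and their part was not tested. At VC day 2, Tm7sf2 and Scd1 differed upward and Sc5d downward (13.9% of all genes called, 6.86% upward and 7.0% downward), of which Scd1 alone was called in every fit that left out 1 library. Against day 0 without VC the difference for Sc5d was 0.14, the other way.

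At VC day 4, 11 genes differed upward and 0 downward (13.9% and 15.5%). They were Pmvk, Idi1, Fdft1, Sqle, Lss, Cyp51, Tm7sf2, Msmo1, Ebp, Srebf2 and Scd1, of which 2 are among the 6 mevalonate genes, 3 are the 3 that lead to lanosterol and 4 are among the 8 after it. Fdft1 had a log2 fold change of 1.11 ± 0.12 in D/KO and 0.06 ± 0.12 in WT cells, a difference of 1.05 ± 0.17 (edgeR adjusted p = 8.98e-06). Tm7sf2 had 1.39 ± 0.21 and 0.00 ± 0.22, a difference of 1.38 ± 0.30 (edgeR adjusted p = 0.000636). Insig1 differed by -0.24 ± 0.19 (95% interval -0.62 to 0.13, edgeR adjusted p = 0.36). Of the 11, 9 were called in every fit that left out 1 library, while Pmvk and Ebp were not (edgeR adjusted p up to 0.102 and 0.0883). Against day 0 without VC, 9 genes differed upward and 2 downward, and the differences for Sqle, Srebf2 and Ebp shrank to 0.32, 0.31 and 0.25 and were not called. Cell division markers moved the same way, with 8 of 8 genes higher in this difference and in that at VC day 2. They summed to 149 to 164 CPM at D/KO VC day 0 and 385 to 511 at D/KO VC day 4, against 148 to 175 at WT VC day 0 and 84.0 to 95.7 at WT VC day 4. Of fibroblast markers 6 of 8 were lower in each of these 2 differences, and of adipocyte markers 3 of 4 were lower at VC day 4. The part of these lists in the result was not tested.

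**Figure D3:**
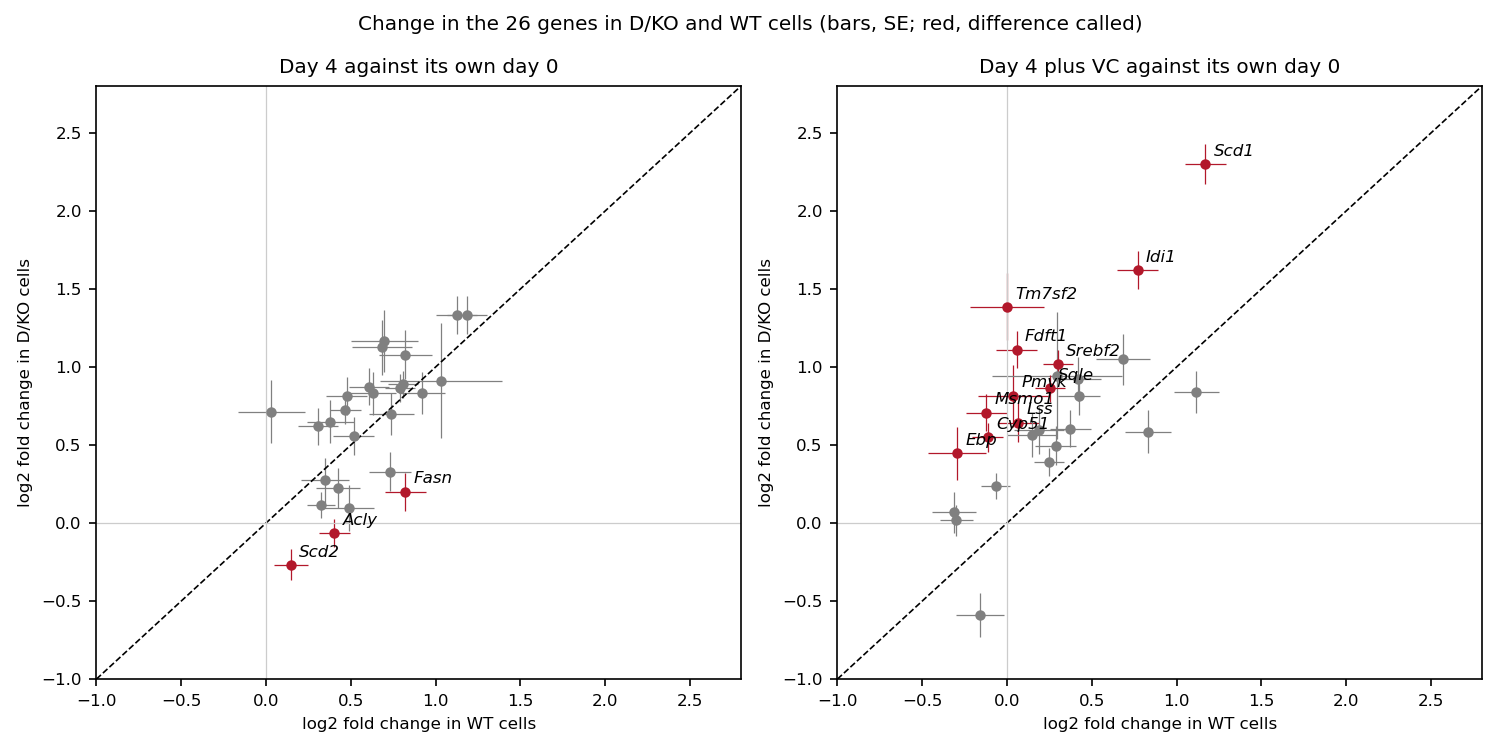
Log2 fold change of each of the 26 genes in D/KO cells (y axis) against that in WT cells (x axis) at day 4 (left) and VC day 4 (right), each against its own day 0, with SE bars. Points on the dashed line changed equally, and red points are those whose difference was called by edgeR: 3 below the line at day 4 and 11 above it at VC day 4.

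In WT cells with VC the change turned after day 2. From VC day 2 to VC day 4, 15 of 26 genes fell and 0 rose by edgeR or DESeq2 (9.95% of all genes were called higher and 10.1% lower), with a median log2 change of -0.38. Cyp51 fell by 0.75, Msmo1 by 0.88, Mvd by 0.84 and Sqle by 0.49. Sqle was 129, 104 and 112 CPM at WT VC day 2 and 81.1, 85.0 and 79.1 at VC day 4, and these did not overlap. Of the 15, 11 were called in every fit that left out 1 library. In D/KO cells the same step gave 0 higher and 1 lower (7.76% and 7.84%), Mvk at -0.43. The call of Mvk was lost without replicate 2 of D/KO VC day 2 or replicate 1 of D/KO VC day 4 (edgeR adjusted p = 0.132 and 0.125). Without VC, day 4 minus day 2 gave 2 higher (Sqle and Srebf2) and 1 lower (Scd2) in D/KO cells (4.50% and 5.07%), and 0 or 1 higher in 5 of the 6 fits that left out 1 library, those without replicate 1 or 2 of day 2 or without any 1 of day 4. In WT cells it gave 7 higher and 1 lower, Pmvk (9.25% and 12.3%), and 2 higher without replicate 2 of WT day 2, 3 without replicate 1 of WT day 4 and 4 without its replicate 3. The call of Pmvk was lost in 4 of 11 alternative fits. Markers moved between these days as well. Fibroblast markers were lower for 5 of 8 in D/KO cells without and with VC and in WT cells with VC, and cell division markers were lower for 7 of 8 in WT and 6 of 8 in D/KO cells without VC and higher for 7 of 8 in D/KO cells with VC, where 4 of 4 endothelial markers were higher. Their part was not tested.

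VC alone was read at day 0, where no doxycycline was given. In D/KO cells it lowered 8 of 26 genes and raised 2 (14.0% of all genes called lower and 12.1% higher). The 8 were Mvd, Idi1, Tm7sf2, Msmo1, Srebf1, Insig1, Acly and Scd1, between -0.38 and -0.66 on the log2 scale, and Ebp (0.73) and Sc5d (0.53) rose. The number lower was 3 without replicate 3 of D/KO day 0, 5 without replicate 1 of VC day 0 and 13 without its replicate 2. In WT cells VC raised 6 genes at day 0, among them Ebp (1.22 ± 0.18, from 21.2 to 25.7 CPM to 44.2 to 61.1) and Fasn (0.62), and lowered 3, Hmgcs1, Msmo1 and Scd1 (15.1% and 14.4%). Thus Ebp rose and Scd1 and Msmo1 fell with VC in both lines, although the call of Msmo1 was lost in 3 of 6 fits that left out 1 library in D/KO and in 5 of 6 in WT cells. Cell division markers summed to 39.6 to 48.3 CPM at WT day 0 and 148 to 175 with VC, with 8 of 8 higher, and to 128 to 142 and 149 to 164 CPM in D/KO cells. With VC at D/KO day 0, endothelial markers went from 511 to 599 to 180 to 217 CPM, with 4 of 4 lower, and fibroblast markers from 86400 to 124000 to 184000 to 252000 CPM, with 6 of 8 higher. At WT day 0 endothelial markers went from 14.5 to 17.2 to 4.67 to 7.08 CPM, with 1 of 4 lower. Fibroblast markers there went from 56900 to 58400 to 154000 to 168000 CPM, with 4 of 8 higher and 1 lower. The part of these lists was not tested.

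With doxycycline, VC at WT day 2 raised 9 genes and lowered 1, Tm7sf2 (26.6% called, 13.5% and 13.0%). At WT day 4 it raised 0 and lowered 13 (22.4% of all genes called, 12% higher and 10.4% lower), with a median of -0.32, and DESeq2 also called 0 higher, with 17 genes at an unadjusted p under 0.05 in either direction. Tm7sf2 was 14.2, 14.4 and 10.6 CPM at WT day 4 and 6.04, 6.42 and 4.52 with VC, without overlap (log2 -1.21 ± 0.20, edgeR adjusted p = 2.2e-05). Idi1 fell by 0.66 and Srebf2 by 0.31 in the same comparison. Of the 13, 9 were called in every fit that left out 1 library. In D/KO cells VC raised 3 and lowered 1 at day 2 (25.3% called, 11.1% and 14.2%) and raised 2 and lowered 4 at day 4 (16.8% and 17.7%). Each of these numbers is near or below the share of all genes. At day 2 the numbers were 1 higher and 0 lower without replicate 2 of D/KO day 2, 0 lower without replicate 3 of VC day 2, and 6 higher and 5 lower with only these groups in the fit. At day 4, 1 was higher without replicate 2 of D/KO day 4, without replicate 1 or 2 of VC day 4, or with only these groups in the fit. Insig1 was the gene lowered at each of days 0, 2 and 4 in D/KO cells, by 0.55, 0.41 and 0.80, and Scd1 was raised at days 2 and 4, by 0.55 and 0.43. Without replicate 3 of D/KO day 0 the value at day 0 was -0.31 and not called (edgeR adjusted p = 0.0887). At D/KO day 2 the call of Insig1 was lost without replicate 2 of day 2 or replicate 3 of VC day 2 (edgeR adjusted p = 0.065 and 0.189). With VC at day 4, 8 of 8 cell division markers were higher in each line, their sum going from 27.1 to 31.6 CPM to 84.0 to 95.7 in WT and from 116 to 156 CPM to 385 to 511 in D/KO cells. Keratinocyte markers were then higher for 4 of 7 tested in each line. Fibroblast markers were higher for 5 of 8 and lower for 2 in WT, and higher for 1 and lower for 4 in D/KO cells. Adipocyte markers were lower for 2 of 4 tested in WT and 4 of 4 in D/KO cells. With VC at WT day 2, 7 of 8 cell division and 5 of 8 fibroblast markers were higher and 3 of 4 adipocyte markers lower, and at D/KO day 2, 4 of 4 endothelial markers were lower. Their part was not tested.

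The inhibitors were compared with 3 control D/KO libraries, which all 4 comparisons share. Repsox raised 9 of 26 genes and lowered 1 (13.4% of all 15164 genes tested were called higher and 11.8% lower), Vactosertib raised 5 and lowered 1 (11.8% and 10.3%), and A83-01 raised 8 and lowered 1 (16.4% and 16.2%). DMH-1 raised 0 and lowered 5 (5.96% and 3.79%), with 13 genes at an unadjusted p under 0.05 in either direction, and DESeq2 called 1 gene higher. The numbers higher were 5 for Repsox without replicate 2 or 3 of the controls, 3 for Vactosertib without control replicate 1 or 2 or its own replicate 1 or 3, and 4 for A83-01 without its replicate 2 or 3. The number lower with DMH-1 was 3 without control replicate 1 or 2 or its own replicate 1, and 2 without its replicate 2.

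Idi1 was called with each of the 4 compounds. It was 13.8, 13.7 and 13.6 CPM in control D/KO, 21.6, 21.5 and 20.4 with Repsox, 20.3, 15.5 and 18.7 with Vactosertib, and 17.7, 20.2 and 17.5 with A83-01. With DMH-1 it was 11.1, 9.90 and 9.76 CPM. Each Repsox, Vactosertib and A83-01 library lay above the controls and each DMH-1 library below them. The log2 fold changes were 0.62 ± 0.11, 0.41 ± 0.11, 0.43 ± 0.11 and -0.41 ± 0.11 (edgeR adjusted p = 0.000432, 0.0121, 0.00607 and 0.0263). Leaving out 1 library took away the call with Vactosertib (its replicate 1, edgeR adjusted p = 0.0757) and, in 5 of 6 fits, that with DMH-1 (up to 0.103).

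Sqle was 56.7, 54.0 and 55.5 CPM in the controls, 72.9, 73.7 and 76.4 with Repsox, 70.1, 61.9 and 70.6 with Vactosertib, 67.1, 65.5 and 69.9 with A83-01, and 43.2, 41.8 and 46.7 with DMH-1. It thus rose with 3 compounds and fell with DMH-1. The call of Sqle was lost without replicate 3 of Vactosertib (edgeR adjusted p = 0.051) and, for DMH-1, without its replicate 2 (0.0609). Insig1 was 33.2 to 37.1 CPM in the controls, 54.9 to 60.6 with Repsox, 50.1 to 55.0 with Vactosertib and 51.7 to 55.9 with A83-01, and these calls held in every fit that left out 1 library (log2 fold changes 0.71, 0.54 and 0.60). With DMH-1 it was 40.8 to 42.2 CPM, above each control but not called (0.22 ± 0.08, edgeR adjusted p = 0.0877). Srebf2 had log2 fold changes of 0.41, 0.41 and 0.40 with Repsox, Vactosertib and A83-01, and of 0.02 ± 0.13 with DMH-1. Each of its 3 calls was lost in more than 1 fit that left out a library, the weakest being without control replicate 1, which read 146 CPM against 172 and 175 (edgeR adjusted p = 0.123, 0.132 and 0.11). Replicate 2 of Repsox read 166 CPM for Srebf2, within the controls, against 242 and 249 in its partners. Without it Repsox raised 7 genes and lowered 1.

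Scd2 went the other way. It was 766, 809 and 763 CPM in control D/KO, 467, 367 and 483 with Repsox, 468, 446 and 416 with Vactosertib, 598, 535 and 491 with DMH-1, and 364, 408 and 378 with A83-01. Every treated library lay below every control, and the log2 level of Scd2 fell by 0.83, 0.81, 0.52 and 1.03 (edgeR adjusted p = 1.58e-05, 2.84e-05, 0.00382 and 1.05e-06), with each call kept in every fit that left out 1 library. Scd1 was called only with A83-01 (0.47 ± 0.15, edgeR adjusted p = 0.0197), and that call was lost without control replicate 1 or 3 or A83-01 replicate 2 or 3 (up to 0.0709). Cell division markers fell with the compounds, from 101 to 109 CPM summed over 8 genes in the controls to 50.8 to 67.9 with Repsox, 48.5 to 55.6 with Vactosertib, 54.4 to 64.4 with DMH-1 and 30.3 to 43.8 with A83-01. Adipocyte markers were higher with all 4, from 98.2 to 99.7 CPM summed over 10 genes in the controls to 213 to 236 with Repsox, 188 to 211 with Vactosertib, 216 to 254 with DMH-1 and 269 to 298 with A83-01, with 5 or 6 of the 10 at no count in each group. Fibroblast markers went from 81400 to 94200 CPM in the controls to 34800 to 51400 with Repsox, 49100 to 55500 with Vactosertib and 40900 to 44900 with A83-01, against 68400 to 86700 with DMH-1, and endothelial markers from 240 to 289 to 106 to 143 CPM with A83-01, with 3 of 4 lower. The part of these lists was not tested.

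**Figure D4:**
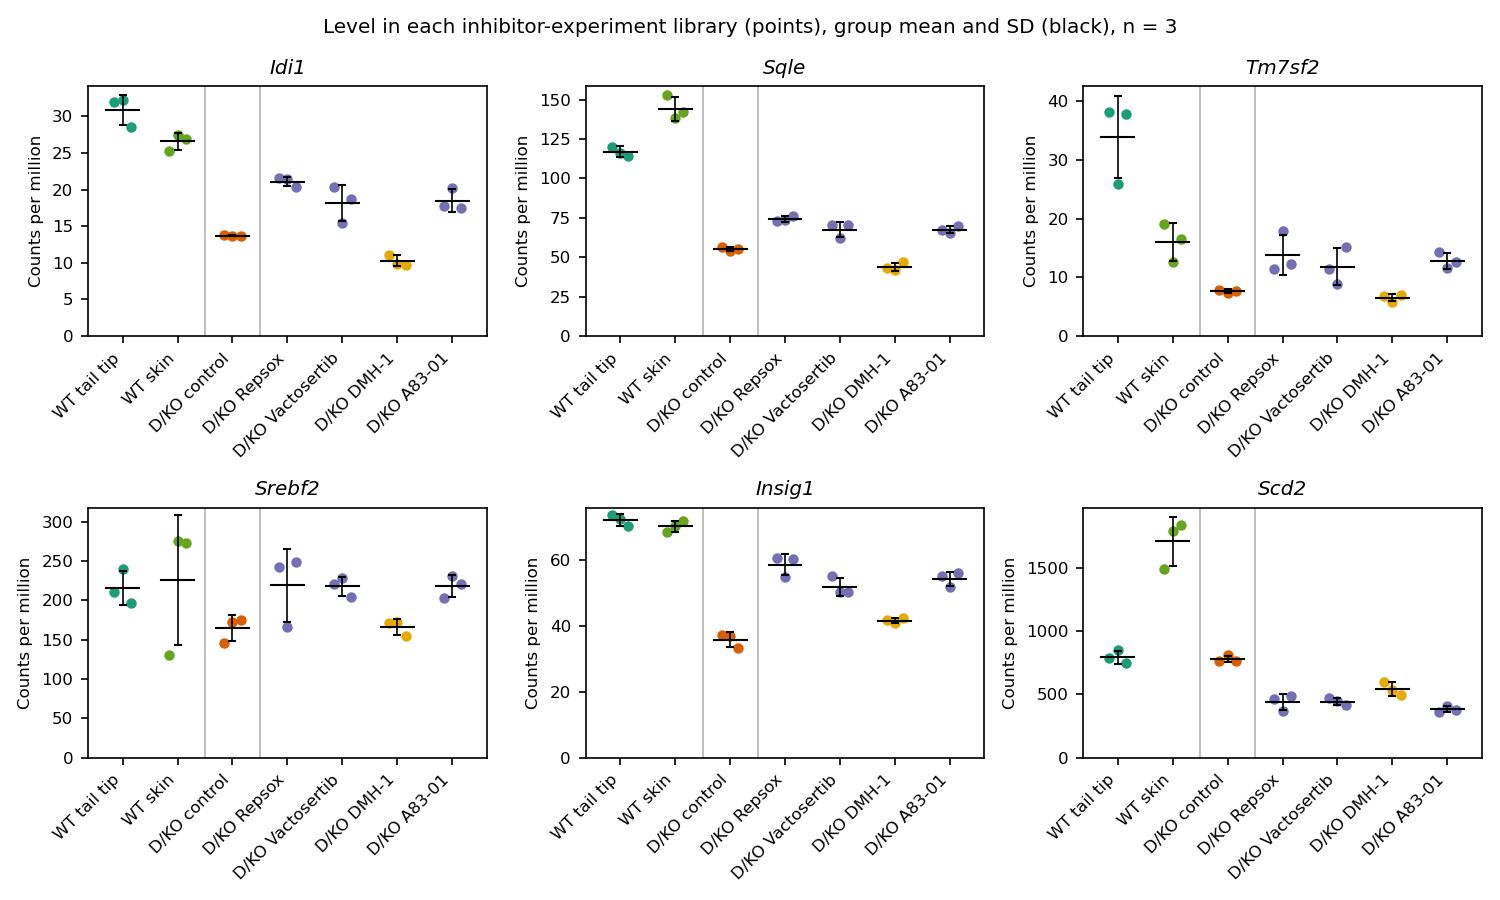
CPM (y axis, from 0) of 6 genes in 21 libraries of the inhibitor table (points), by group (x axis), with the group mean and SD in black (n = 3). Idi1, Sqle and Insig1 lie above the control D/KO libraries with Repsox, Vactosertib and A83-01, while Scd2 lies below them with all 4 compounds.

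Compounds were compared directly in 2 pairs, each pair at the same dose by the values taken above from the study's text. Between Repsox and Vactosertib, 0 of 26 genes and 0 of all 15164 genes tested (0%) were called by edgeR, with 2 of the 26 and 452 of all genes at an unadjusted p under 0.05, and DESeq2 called 0 of the 26 and 8 of all genes. Without replicate 2 of Repsox edgeR again called 0 genes, with 1366 of 15591 at an unadjusted p under 0.05. For Idi1 the difference was 0.21 (95% interval -0.00 to 0.42), for Scd2 -0.03 (-0.23 to 0.18) and for Tm7sf2 0.22 (-0.18 to 0.61), intervals that do not show equal action. Between A83-01 and DMH-1, 9 genes were higher and 1 lower with A83-01 (11.9% and 13.4% of all genes). Sqle differed by 0.62 ± 0.08, Idi1 by 0.84 ± 0.11, Tm7sf2 by 0.97 ± 0.21, Scd1 by 0.79 ± 0.15 and Scd2 by -0.50 ± 0.11 (edgeR adjusted p = 1.23e-05, 2.22e-05, 0.0022, 0.000649 and 0.0018). Each of these 5 was called in every fit that left out 1 library. DESeq2 called 14 higher.

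**Figure D5:**
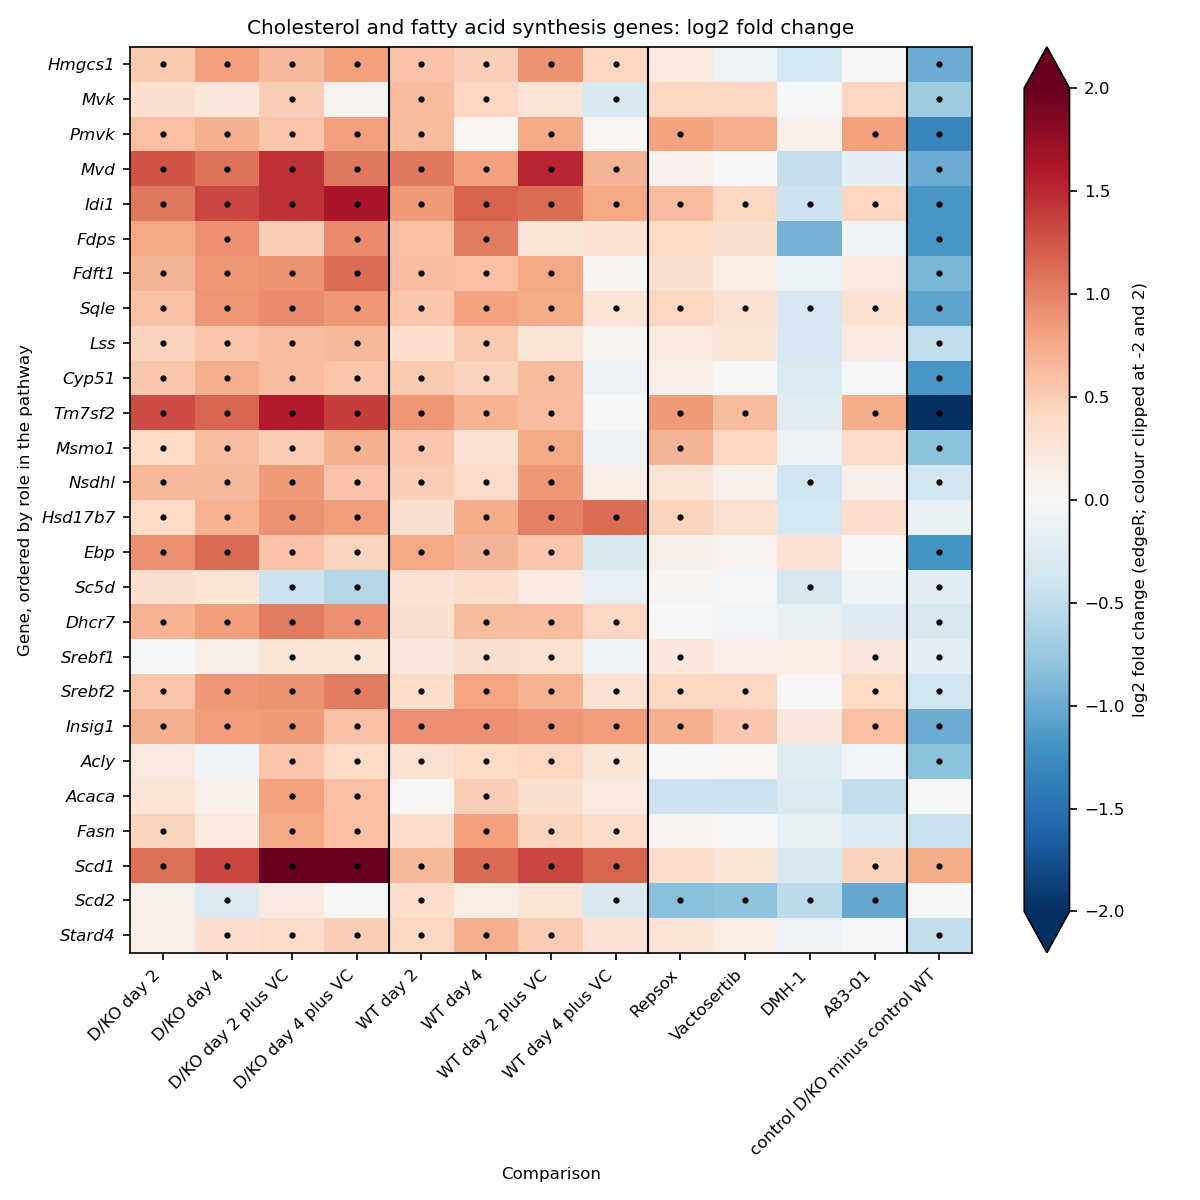
Log2 fold change (colour, clipped at -2 and 2) of the 26 genes (rows, by role) in 13 comparisons (columns), with a dot where edgeR called the gene at an adjusted p under 0.05. Red fills most of the 8 reprogramming columns, the Scd2 row is blue with the 4 compounds, and the last column, control D/KO against control WT, is blue for 21 called genes and red for Scd1.

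Untreated D/KO and WT cells gave different pictures in the 2 tables. In the inhibitor experiment 21 of 26 genes were lower in control D/KO than in control WT tail tip cells and 1 was higher (18.9% of all genes lower and 21.3% higher), with a median of -0.76. These cells differ in age (4 against 14 weeks) as well as genotype, and the control D/KO libraries also serve the inhibitor comparisons. Tm7sf2 was 38.1, 25.9 and 37.8 CPM in WT and 7.92, 7.32 and 7.61 in D/KO cells (log2 -2.14 ± 0.21, edgeR adjusted p = 3.91e-07). Sqle was 120, 116 and 114 against 56.7, 54.0 and 55.5 CPM, and Cyp51, Ebp and Idi1 were lower by 1.17, 1.20 and 1.16 on the log2 scale. Scd1 was the gene that went up, from 85.3, 97.9 and 78.0 to 141, 149 and 143 CPM (0.75 ± 0.15, edgeR adjusted p = 0.000606). Of the 21, 16 were lower in every fit that left out 1 library, and Scd1 was higher in every one. Among adipocyte markers, whose sum was 863 to 886 CPM in WT and 98.2 to 99.7 in D/KO cells, 5 of 10 genes had no count in each group. Cell division markers summed to 60.6 to 61.8 CPM in WT and 101 to 109 in D/KO cells, with 7 of 8 higher, and endothelial markers to 57.8 to 75.8 and 240 to 289 CPM, with 3 of 4 higher. The part of these lists was not tested.

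In the reprogramming table, D/KO and WT cells at day 0 gave 9 genes higher and 0 lower (22.1% and 21.1%), with 12 at an unadjusted p under 0.05. Fasn was 283, 291 and 392 CPM in D/KO and 198, 157 and 180 in WT cells (log2 0.85 ± 0.12, edgeR adjusted p = 6.11e-07), and Scd2 was 654, 697 and 795 against 514, 496 and 492. The number higher was 3 without replicate 3 of D/KO day 0 and 5 without replicate 2 or 3 of WT day 0. Endothelial markers also differed between these lines, at 511 to 599 CPM summed over 4 genes in D/KO and 14.5 to 17.2 in WT cells, and so did cell division markers, at 128 to 142 against 39.6 to 48.3 CPM with 8 of 8 higher. The part of either list was not tested.

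WT skin fibroblasts were set beside WT tail tip fibroblasts of the same age and sex in a fit of all 24 libraries. Of the 26 genes, 8 were higher in skin and 1 was lower (18.1% and 16.1% of 15652 genes tested). Scd2 was 1490, 1790 and 1840 CPM in skin and 786, 850 and 746 in tail tip cells (log2 1.10 ± 0.11, edgeR adjusted p = 1.73e-07), and Scd1 was 107, 206 and 213 against 85.3, 97.9 and 78.0. The groups did not overlap for either desaturase, although replicate 1 of skin, which stood apart by transcript length, was the lowest for both. Without it the log2 differences were 1.19 for Scd2, 1.26 for Scd1 and -1.23 for Tm7sf2. Tm7sf2 was the gene lower in skin, at 12.6 to 19.0 against 25.9 to 38.1 CPM (-1.08 ± 0.20, edgeR adjusted p = 0.000245). Without replicate 1 of skin 11 genes were higher and 2 lower, and with only these 2 groups in the fit 3 were higher and 1 lower. Cell division markers summed to 294 to 355 CPM in skin and 60.6 to 61.8 in tail tip cells, adipocyte markers to 468 to 623 and 863 to 886 CPM, and endothelial markers to 116 to 209 and 57.8 to 75.8 CPM. The part of these lists was not tested.

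Genes near the pathway were read from a list of 29, of which 28 were tested. In D/KO cells 8, 6, 11 and 10 of them were higher and 4, 4, 2 and 4 lower at day 2, day 4, VC day 2 and VC day 4, and in WT cells 6, 8, 10 and 10 were higher and 0, 3, 2 and 10 lower. Of all genes, 14.3%, 18.3%, 23.8% and 27.9% were higher in the D/KO comparisons in that order and 13.2%, 18.7%, 23.6% and 26.2% lower, and in the WT ones 6.26%, 11.7%, 13.8% and 22.7% were higher and 4.30%, 12.8%, 13.7% and 22.0% lower. The number higher at D/KO day 4 is near the share of all genes. Elovl6 and Fads2, which lengthen and desaturate fatty acids, rose by 1.65 and 1.30 at D/KO VC day 2, and Acss2, which makes acetyl-CoA from acetate, by 0.77 at D/KO day 2. With the inhibitors, the higher and lower counts among the 28 were 6 and 3 for Repsox, 5 and 3 for Vactosertib, 1 and 2 for DMH-1, and 7 and 4 for A83-01, against 13.4%, 11.8%, 5.96% and 16.4% of all genes higher and 11.8%, 10.3%, 3.79% and 16.2% lower, so that the numbers lower are near those of all genes. Fads2 rose with Repsox (0.79), Vactosertib (0.64) and A83-01 (0.66).

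Sterol efflux and storage genes, a list of 9 that were all tested, did not move as 1 block. Abca1, the cholesterol efflux pump, rose by 0.91, 1.42, 1.83 and 2.34 in the 4 D/KO comparisons in the same order, while Soat1, which esterifies cholesterol, fell by 0.87, 1.16, 0.50 and 0.50. In all, 1, 2, 2 and 2 of the 9 were higher and 4, 5, 3 and 4 lower in D/KO cells at day 2, day 4, VC day 2 and VC day 4. The shares of all genes were 14.3%, 18.3%, 23.8% and 27.9% higher and 13.2%, 18.7%, 23.6% and 26.2% lower, so the numbers higher are near or below those of all genes. Soat1 also fell with all 4 inhibitors, by 0.49 (Repsox), 0.58 (Vactosertib), 0.30 (DMH-1) and 0.71 (A83-01).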

How the data were processed

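Cultured mouse fibroblasts were profiled by RNA sequencing in 60 libraries. According to the labels and the study's methods, the authors trimmed reads with Trim Galore, checked them with FastQC, aligned them to GRCm39 with HISAT2 and deposited raw counts per gene from featureCounts (Subread). Tool versions, annotation release, strandedness and the treatment of reads with several matches are not given in the sources used here.

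The deposited counts were analysed in R 4.3.3 with edgeR 4.0.16. Genes were kept by filterByExpr (minimum count 10, minimum total 15), scaled by TMM and tested with glmQLFit and glmQLFTest, two-sided, with adjusted p under 0.05 as a call. All 36 reprogramming libraries entered 1 fit, 18 libraries of the inhibitor table another, and all 24 of them the skin to tail tip comparison. Groups follow the labels. DESeq2 1.42.0, its size factors, other filters, smaller fits, another baseline and leaving out each library were the alternatives. Near-identical transcripts were found with blastn 2.17.0 (97% identity over 150 bases). No 2 libraries of a group agreed within counting noise. Scripts were tested on simulated data. All 26 genes are reported by role, with values in every library for some of those called in the most comparisons of their role or going against it. Of the pathway and efflux lists, at most the 4 genes with the smallest p in a comparison are named. The members and gene lists were chosen with earlier results of these data known.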

Additional observations from a re-analysis of the deposited data

Results flagged for a closer look

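The change from day 0 differed between D/KO and WT cells for 17 gene and time combinations, each by an interaction term in edgeR at an adjusted p under 0.05. Values are log2 differences, D/KO change minus WT change, over 3 libraries a group. At day 4 they were -0.47 for Acly, -0.62 for Fasn and -0.41 for Scd2. At VC day 2 they were -0.58 for Sc5d, 0.85 for Scd1 and 0.96 for Tm7sf2. At VC day 4 they were 0.67 for Cyp51, 0.74 for Ebp, 1.05 for Fdft1, 0.85 for Idi1, 0.58 for Lss and 0.83 for Msmo1, and 0.78 for Pmvk, 1.13 for Scd1, 0.61 for Sqle, 0.72 for Srebf2 and 1.38 for Tm7sf2. With day 0 without VC as the baseline, the VC day 4 differences for Ebp, Sqle and Srebf2 were 0.25, 0.32 and 0.31 and were not called, and that for Sc5d at VC day 2 was 0.14. The call of Scd2 at day 4 was lost in 12 of 17 alternative fits. Sex, age and line differ with genotype here and cannot be told apart from it.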

How the results depend on the processing

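Leaving out 1 library at a time moved some counts of called genes by more than 1.5 times. The lowest to highest numbers called higher were 4 to 8 (A83-01), 0 to 2 (D/KO day 4 minus day 2), 0 to 1 (D/KO minus WT change, day 2), 1 to 3 (D/KO minus WT change, VC day 2), 0 to 1 (D/KO minus WT change, day 4), 3 to 10 (D/KO minus WT, day 0), 5 to 7 (Repsox), 3 to 4 (Vactosertib), 1 to 3 (VC at D/KO day 2), 1 to 3 (VC at D/KO day 4), 2 to 8 (WT day 4 minus day 2). The lowest to highest numbers called lower were 0 to 1 (D/KO VC day 2), 0 to 1 (D/KO day 4), 1 to 2 (D/KO day 4 minus day 2), 0 to 2 (D/KO VC day 4 minus VC day 2), 0 to 1 (D/KO minus WT change, VC day 2), 1 to 3 (D/KO minus WT change, day 4), 0 to 1 (D/KO minus WT change, VC day 4), 0 to 1 (D/KO minus WT, day 0), 2 to 5 (DMH-1), 3 to 13 (VC at D/KO day 0), 0 to 1 (VC at D/KO day 2), 1 to 2 (VC at WT day 2), 0 to 1 (WT day 4 minus day 2), 0 to 2 (WT VC day 4), 1 to 2 (WT skin minus WT tail tip). Over all named calls, 1797 values kept their side of the threshold in these fits and 315 lost it, and 0 changed sign.

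With only the groups compared in the fit, the number lower was 0 at D/KO day 4, 3 for VC at D/KO day 0, 5 for VC at D/KO day 2, 1 for D/KO minus WT at day 0, 8 for DMH-1 and 3 for A83-01, and the number higher was 6 for VC at D/KO day 2, 1 for VC at D/KO day 4, 1 for VC at WT day 4, 1 for D/KO day 4 minus day 2, 4 for Repsox, 8 for Vactosertib, 14 for A83-01 minus DMH-1 and 3 for skin minus tail tip. With no filter on low counts, the number lower was 0 at D/KO day 4, 1 at WT VC day 4, 1 for the D/KO minus WT change at day 4 and 1 for DMH-1, and 0 were higher for D/KO day 4 minus day 2. With DESeq2, 1 gene was higher with DMH-1, 2 were lower with A83-01 and 14 were higher for A83-01 minus DMH-1, and with its size factors in edgeR 0 were lower in the D/KO minus WT change at VC day 2. With all 24 libraries in the fit, 10 of 62 calls of the inhibitor table were lost, among them Srebf2 in all 5 comparisons where it was called. Fdps did not pass the filter of at least 10 counts in every library. The causes were not tested.

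With day 0 without VC as the baseline, 0 genes were lower at D/KO VC day 2 and VC day 4, and the D/KO minus WT change had 4 lower at VC day 2 and 2 at VC day 4. Log2 fold changes then turned for Sc5d (0.11) and Srebf1 (-0.13) at D/KO VC day 2, for Srebf1 (-0.14) and Acly (-0.018) at D/KO VC day 4, for Hmgcs1 (-0.031), Mvk (0.13) and Scd2 (0.23) at WT VC day 4, and for Sc5d (0.14) in the D/KO minus WT change at VC day 2. Another 13 calls were lost with their direction kept. They were Mvk, Msmo1, Insig1 and Acly at D/KO VC day 2, Fdps, Sc5d, Insig1 and Acaca at D/KO VC day 4, Tm7sf2 at WT VC day 2, Acly at WT VC day 4, and Sqle, Ebp and Srebf2 in the D/KO minus WT change at VC day 4. No other alternative turned a called direction. No paired analysis was possible because the labels number the libraries in 1 series through each table and share no replicate number between groups. With 3 libraries a group, genes of low count such as Fdps and Pmvk were measured least precisely.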

Other observations

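The 3 libraries of the WT 4F line labelled TGFB, which had no untreated partner in their table, entered no comparison. Scd2 was 1720, 1700 and 1590 CPM in them, Fasn was 580, 561 and 539 CPM, and Sc5d was 106, 105 and 114 CPM. Hsd17b7 was 118, 109 and 107 CPM, and Tm7sf2 was 7.07, 7.51 and 6.19 CPM.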
